A study of Mus musculus with 8 samples.

Results

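The G1 cyclins and CDK inhibitors described here are 10 of the 24421 genes counted in each library. They were chosen by symbol: the D cyclins Ccnd1, Ccnd2 and Ccnd3, the kinases Cdk4 and Cdk6, the CIP/KIP inhibitors Cdkn1a and Cdkn1b, the INK4 inhibitors Cdkn2a and Cdkn2c, and the retinoblastoma gene Rb1. All 10 were in the table, and 10 had a read in each Direct RNA library and in both cDNA Day4 libraries, against 9 in each cDNA Undiff library.

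The cells were R1 mouse embryonic stem cells (ESCs), an established pluripotent line. Undiff libraries came from cells in a serum growth medium, to which the study's methods add LIF, a cytokine that keeps ESCs undifferentiated. Day4 libraries came from embryoid bodies, which are cell aggregates, kept for 4 days without LIF and then exposed to retinoic acid (RA) for 4 days. The labels give the RA dose as 2 mM in one place and 2 μM in another, and they name embryoid bodies as the tissue of all 8 libraries. Polyadenylated RNA of each state was sequenced by Oxford Nanopore Technologies (ONT) with 2 kits, named platforms here: ONT Direct RNA, which reads the native strand, and ONT cDNA, in which the RNA is copied and amplified by PCR. The input of this RNA was 500 ng for Direct RNA and 50 ng for cDNA, so kit and input amount cannot be told apart. Each of the 4 groups had 2 biological replicates, grown and treated separately according to the methods. All groups are of this 1 cell line and the labels name no genetic change, and an embryoid body is a mixture of cell types.

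D-type cyclins bind and activate CDK4 and CDK6 in G1, and the complexes phosphorylate the RB protein, which then releases E2F factors that drive S phase genes. INK4 proteins (the Cdkn2 genes) bind CDK4 and CDK6 themselves, and CIP/KIP proteins (the Cdkn1 genes) bind cyclin-CDK complexes, CDK2 complexes above all. Mouse ESCs are known for a short G1 phase, high cyclin E activity and low D cyclin levels, and differentiation lengthens G1.

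Reads on genes ranged from 283461 to 907489 in the Direct RNA libraries and from 948657 to 2088592 in the cDNA libraries. Levels are given in CPM, the number of reads per 1000000 reads on genes of that library, as mean ± SD (n = 2), and 3 reads equal 3.31 to 10.6 CPM in Direct RNA and 1.44 to 3.16 CPM in cDNA. Wilson intervals at 95% and this floor cover counting error only. Of 7 pluripotency markers, 7 fell at Day4 on both platforms, and of 7 RA response genes 6 rose in Direct RNA and 7 in cDNA, where 9.54% of all genes tested were higher and 7.67% lower in Direct RNA, and 8.69% and 9.24% in cDNA. Summed pluripotency levels were 5671 and 5881 CPM in Direct RNA Undiff against 56.4 and 153 CPM at Day4, and 2690 and 3334 against 9.86 and 97.7 CPM in cDNA. The Undiff libraries thus held defining ESC markers, whichever tissue the label names.

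Most markers of mesenchyme and endoderm that passed the mean count limit rose with the state. Of 8 mesenchyme markers, 5 rose in Direct RNA and 4 in cDNA, and their summed level went from between 7.71 and 14.3 CPM to between 1283 and 2967 CPM in Direct RNA, and from between 4.31 and 9.49 to between 233 and 267 CPM in cDNA. Thy1 of this list had lower values at Day4 (-1.18 and -2.85 on the log2 scale), which did not pass in DESeq2 but did in edgeR in cDNA. In Undiff, Col1a2, Col3a1, Dcn, Lum and Postn were at 0 reads on both platforms. Of 8 endoderm markers, 5 rose in Direct RNA (279 to 456 CPM in Undiff, 1335 to 1986 CPM at Day4) and 4 in cDNA (102 to 126 CPM, then 731 to 798 CPM), and Afp, Ttr and Gata6 were at 0 in Undiff on both platforms. Those of neural cells and endothelium went both ways. Of 8 neural markers, 1 rose and 2 fell on each platform, with sums of 634 and 638 CPM in Undiff and 140 and 187 CPM at Day4 in Direct RNA, and of 640 and 804 against 643 and 652 CPM in cDNA. Among 5 endothelial markers 1 rose in Direct RNA and 1 fell in cDNA, with sums between 40.2 and 216 CPM in all libraries. The part of such a change in cell types in any result below was not tested.

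**Figure D1:**
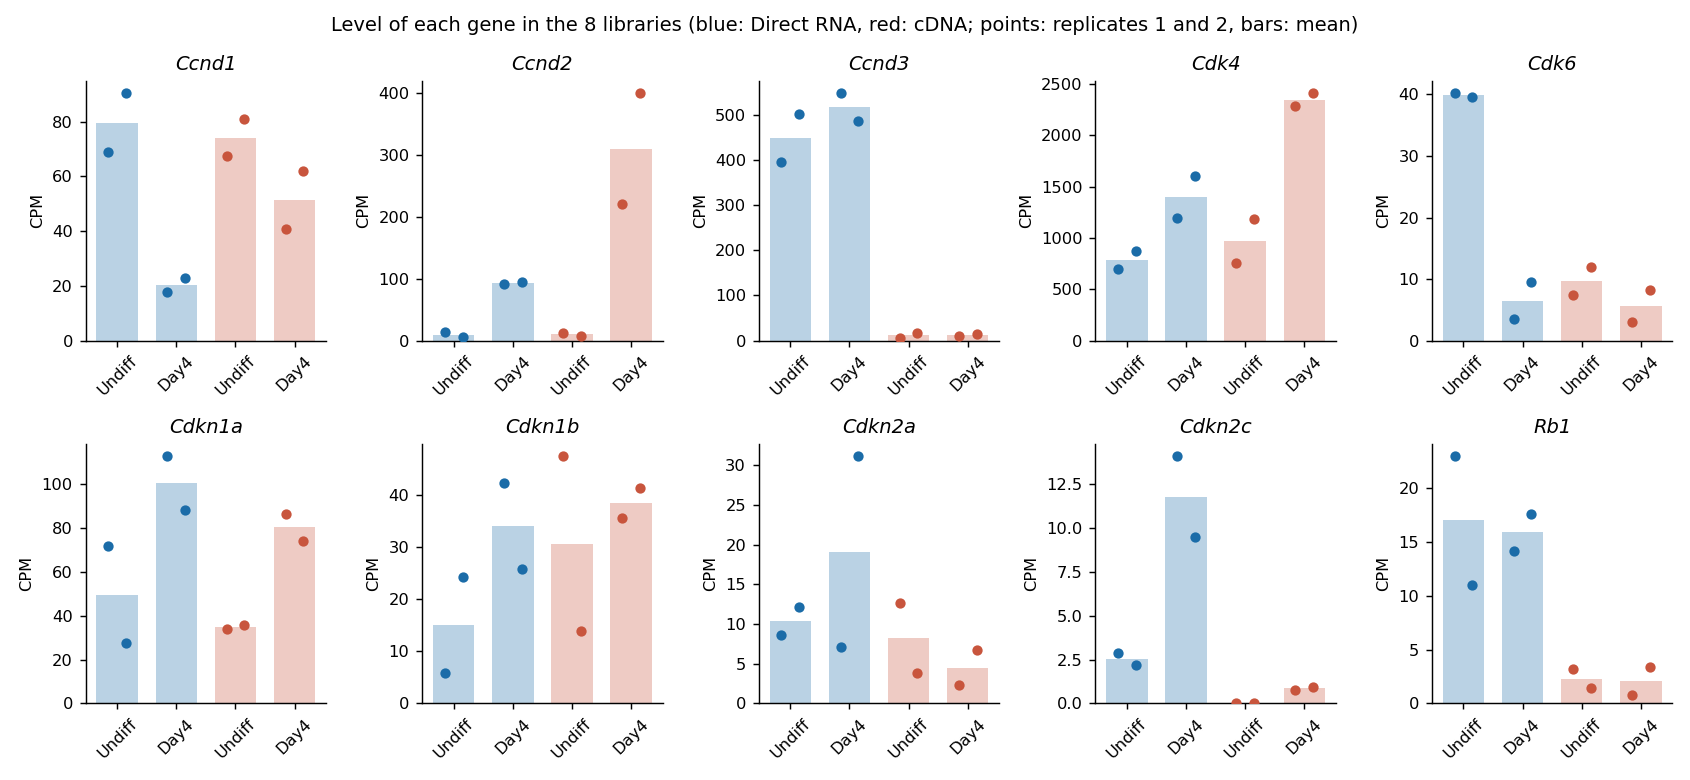
Level of each of the 10 genes in CPM (y axis, own scale for each gene) in the 4 groups (x axis), with points for replicates 1 and 2 and bars for their mean. Ccnd2 is low in all 4 Undiff libraries and high in all 4 Day4 libraries, and Ccnd3 is between 396 and 547 CPM in Direct RNA but between 6.32 and 17.7 CPM in cDNA.

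Of the D cyclins, Ccnd2 rose on both platforms, Ccnd1 fell in Direct RNA, and Ccnd3 passed the test on neither. Ccnd2, the cyclin D2 gene (chr6:127125162-127152193, minus strand, GENCODE on GRCm38), had 5 and 5 reads in Direct RNA Undiff and 26 and 70 reads at Day4. In cDNA it had 12 and 17 reads in Undiff and 291 and 831 reads at Day4. No Undiff library overlapped a Day4 library on either platform. Its level rose from 9.93 ± 6.25 to 93.3 ± 2.25 CPM in Direct RNA, a 9.40-fold ratio of means, and from 10.4 ± 3.19 to 310 ± 127 CPM in cDNA, a 29.9-fold ratio. In bulk RNA, a larger share of cells that express a gene and more RNA per cell cannot be told apart.

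Differential expression between the states was tested with DESeq2 on each platform. A call needed 3 conditions: an adjusted p of 0.05 or less, a log2 fold change of 1 or more in either direction, and 5 or more normalized reads on average. Ccnd2 was called higher on both platforms, by 3.08 ± 0.71 on the log2 scale (± SE here and below, adjusted p = 0.000397) in Direct RNA and by 4.47 ± 0.51 (adjusted p = 4.99e-16) in cDNA. It was the only one of the 10 genes called on both. The Direct RNA call was lost without Undiff replicate 2 (2.32, adjusted p = 0.272) or without Day4 replicate 2 (2.73, adjusted p = 0.161), the deeper libraries, while the cDNA call held in each setting tried. Whether the change differed between platforms was tested as the interaction of platform and state, which gave 1.24 ± 0.83 (unadjusted p = 0.138, DESeq2), so the larger cDNA value was not separated from the Direct RNA value.

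Ccnd1, the cyclin D1 gene (chr7:144929931-144939925, minus strand), went the other way. It had 24 and 82 reads in Direct RNA Undiff, then 5 and 17 at Day4, and 64 and 169 reads in cDNA Undiff, then 54 and 129 at Day4. Both Day4 libraries lay below both Undiff libraries in CPM on each platform. The level fell from 79.6 ± 15.2 to 20.3 ± 3.83 CPM in Direct RNA and was called lower (-1.94 ± 0.65, adjusted p = 0.0294, DESeq2). In cDNA it was 74.2 ± 9.51 CPM in Undiff and 51.5 ± 14.9 CPM at Day4, which did not pass the test (-0.84 ± 0.47, adjusted p = 0.316). The interaction was 1.16 ± 0.75 (unadjusted p = 0.119), so the platforms were not shown to differ in this change. The Direct RNA call rested on all 4 libraries. Leaving out Undiff replicate 1 or 2 gave -2.14 and -1.60, and leaving out Day4 replicate 1 or 2 gave -1.67 and -2.04, with adjusted p-values of at least 0.219 in each case.

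Ccnd3, the cyclin D3 gene (chr17:47505051-47599691, plus strand), did not pass the test between states on either platform. Direct RNA had 138 and 455 reads in Undiff and 155 and 358 at Day4 (449 ± 74.5 and 516 ± 43.4 CPM), with overlapping groups and a log2 fold change of 0.08 ± 0.30 (95% interval -0.52 to 0.68). In cDNA the gene had 6 and 37 reads in Undiff and 13 and 30 at Day4 (12.0 ± 8.05 and 12.2 ± 3.24 CPM), with a wider interval of -1.88 to 1.27.

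Ccnd3 led the D cyclin reads in both states in Direct RNA, whereas in cDNA the lead went from Ccnd1 to Ccnd2. In Direct RNA, Ccnd3 held 83.3 ± 0.93% of all D cyclin reads in Undiff and 81.9 ± 2.04% at Day4. Ccnd1 fell there from 14.8 ± 0.54% to 3.25 ± 0.80%, and Ccnd2 went from 1.96 ± 1.46% to 14.9 ± 1.24%. In cDNA, Ccnd1 held 76.9 ± 1.60% in Undiff and 14.1 ± 1.45% at Day4, whereas Ccnd2 held 11.1 ± 4.96% and then 82.6 ± 1.88%. The Ccnd3 share in cDNA was 12.0 ± 6.56% and 3.33 ± 0.42%. These shares count reads. Divided by the length of the longest transcript, the leading D cyclin was the same in each of the 4 groups, with 83.5% and 86.8% for Ccnd3 in Direct RNA, 80.9% for Ccnd1 in cDNA Undiff and 73.9% for Ccnd2 in cDNA Day4. The longest annotated Ccnd3 transcript (3858 bases) has 2 exons, against 5 for Ccnd1 and Ccnd2. Whether it is the transcript that was read was not tested. With 2 libraries a group an exact permutation test cannot give a p below 0.33, so the shares are given without a test.

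**Figure D2:**
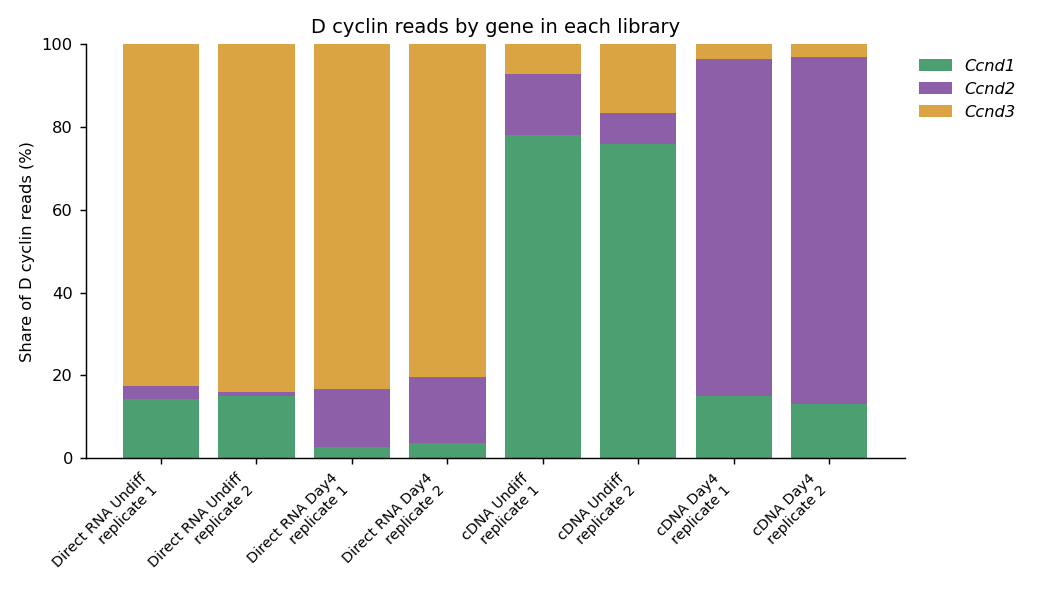
Share of D cyclin reads (%, y axis) on Ccnd1, Ccnd2 and Ccnd3 in each of the 8 libraries (x axis, 1 bar a library). Ccnd3 fills over 80% of each Direct RNA bar, and the cDNA bars turn from Ccnd1 in Undiff to Ccnd2 at Day4.

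Cdk4, a kinase that the D cyclins activate (chr10:127063534-127067920, plus strand), had the highest level per kilobase of transcript of the 10 genes in each group, between 383 ± 59.4 CPM per kb in Direct RNA Undiff and 1143 ± 43.0 CPM per kb in cDNA Day4. Its promoter is shown because this gene leads the set. The 300 bases (250 before the start and 50 after it, RefSeq, GRCm38.p6, chr10:127063285-127063584, plus strand) hold 4 copies of the E-box CACGTG, the sequence that Myc/Max dimers bind, in capitals here.
Cdk4: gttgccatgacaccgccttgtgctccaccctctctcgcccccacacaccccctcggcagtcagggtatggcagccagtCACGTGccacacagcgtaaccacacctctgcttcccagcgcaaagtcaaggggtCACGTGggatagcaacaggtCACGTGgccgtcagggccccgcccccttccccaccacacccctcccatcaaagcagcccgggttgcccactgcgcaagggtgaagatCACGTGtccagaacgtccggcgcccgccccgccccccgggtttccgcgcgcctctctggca
The E-box reads the same on both strands. Of 32851 mouse promoter windows of this kind, 7.15% held at least 1 copy and 8 windows (0.0244%) held at least 4. A match is a description of the sequence only.

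Cdk4 had 244 and 792 reads in Direct RNA Undiff and 338 and 1184 at Day4, and 717 and 2486 reads in cDNA Undiff and 3012 and 5006 at Day4. The Day4 libraries lay above the Undiff libraries on both platforms, at 1399 ± 292 against 786 ± 122 CPM in Direct RNA and 2347 ± 88.3 against 973 ± 307 CPM in cDNA. Neither difference passed the test, with 0.72 ± 0.28 (adjusted p = 0.0872, DESeq2) in Direct RNA and 0.95 ± 0.37 (adjusted p = 0.0819) in cDNA, and both lie under the fold threshold. With total reads as size factors the cDNA value was 1.25 (adjusted p = 0.0107) and passed. That scaling, added after the data were seen, moved the median of all genes from 0.002 to 0.31 on the log2 scale in cDNA and from 0.025 to 0.13 in Direct RNA.

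Cdk6, the other D cyclin kinase (chr5:3341485-3531008, plus strand), was at 0.49 to 3.46 CPM per kb in the 4 groups. It had 14 and 36 reads in Direct RNA Undiff and 1 and 7 at Day4, and 7 and 25 in cDNA Undiff and 4 and 17 at Day4. The Direct RNA groups did not overlap (39.9 ± 0.36 and 6.51 ± 4.22 CPM), but the change did not pass in DESeq2 (-2.30 ± 0.90, adjusted p = 0.0788). It passed in edgeR (-2.46, adjusted p = 0.000596) and in DESeq2 on genes with at least 10 reads (-2.31, adjusted p = 0.0458). In cDNA the groups overlapped (9.67 ± 3.25 and 5.61 ± 3.64 CPM, -1.02 ± 0.93). Of the reads on both kinases, Cdk6 held 4.89 ± 0.76% in Direct RNA Undiff and 0.44 ± 0.21% at Day4, and 0.98 ± 0.02% and 0.24 ± 0.15% in cDNA.

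Among the CIP/KIP inhibitors, Cdkn1a encodes p21, a well-known target of the p53 protein (chr17:29090976-29100727, plus strand). The promoter of its upstream start is shown because it holds a match to the p53 response element consensus (1 mismatch allowed, both strands, in capitals), at RefSeq GRCm38.p6, chr17:29090729-29091028, plus strand.
Cdkn1a: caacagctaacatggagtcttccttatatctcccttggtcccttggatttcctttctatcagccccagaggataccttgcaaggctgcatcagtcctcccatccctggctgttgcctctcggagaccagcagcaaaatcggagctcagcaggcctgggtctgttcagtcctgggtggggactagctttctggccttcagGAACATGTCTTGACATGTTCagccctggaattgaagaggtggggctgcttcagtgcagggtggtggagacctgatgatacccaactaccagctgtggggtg
Of the 32851 windows, 29 (0.0883%) held such a match.

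Cdkn1a had 25 and 25 reads in Direct RNA Undiff and 32 and 65 at Day4, and 32 and 75 reads in cDNA Undiff and 114 and 154 at Day4. Both Day4 libraries lay above both Undiff libraries on each platform. The ratio of mean CPM was 2.02 in Direct RNA (49.6 ± 31.3 to 101 ± 17.5 CPM) and 2.31 in cDNA (34.8 ± 1.54 to 80.3 ± 8.73 CPM). Neither passed in DESeq2 (0.94 ± 0.58, adjusted p = 0.393, and 0.87 ± 0.50, adjusted p = 0.328). In edgeR the Direct RNA change was called (1.04, adjusted p = 0.0428) and the cDNA change was not (0.91, adjusted p = 0.141).

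Cdkn1b, which encodes p27 (chr6:134920401-134925513, plus strand), did not pass the test between states on either platform. Its reads were 2 and 22 in Direct RNA Undiff, 12 and 19 at Day4, 45 and 29 in cDNA Undiff and 47 and 86 at Day4. The groups did not overlap in Direct RNA (15.0 ± 13.1 and 34.0 ± 11.7 CPM) but did in cDNA (30.7 ± 23.7 and 38.5 ± 4.06 CPM). The intervals of the log2 fold change were -0.87 to 2.55 in Direct RNA and -1.26 to 1.26 in cDNA.

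The INK4 inhibitors were near the limit of detection. Cdkn2a, a gene whose alternative first exons give p16INK4a and ARF (chr4:89274471-89294653, minus strand), had 3 and 11 reads in Direct RNA Undiff, 2 and 23 at Day4, 12 and 8 in cDNA Undiff and 3 and 14 at Day4. Counts per gene do not separate those products. The groups overlapped on both platforms, and the fitted changes were 0.71 ± 1.03 and -1.05 ± 1.01. Cdkn2c, which encodes p18INK4c (chr4:109660876-109667189, minus strand), had 1 and 2 reads in Direct RNA Undiff, 4 and 7 at Day4, 0 and 0 in cDNA Undiff and 1 and 2 at Day4. Its mean normalized count was 3.48 in Direct RNA and 0.57 in cDNA, under the limit of 5, so it could not be called. In cDNA Undiff, a count of 0 allows up to 3.16 and 1.44 CPM.

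Rb1, the substrate of the cyclin D kinases (chr14:73183673-73325822, minus strand), did not separate the states either. It had 8 and 10 reads in Direct RNA Undiff and 4 and 13 at Day4 (17.0 ± 8.44 and 15.9 ± 2.48 CPM, -0.11 ± 0.96), and 3 and 3 reads in cDNA Undiff and 1 and 7 at Day4. The cDNA mean of 3.29 was under the limit. At these counts the 95% interval in Direct RNA runs from -1.99 to 1.77 on the log2 scale.

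**Figure D3:**
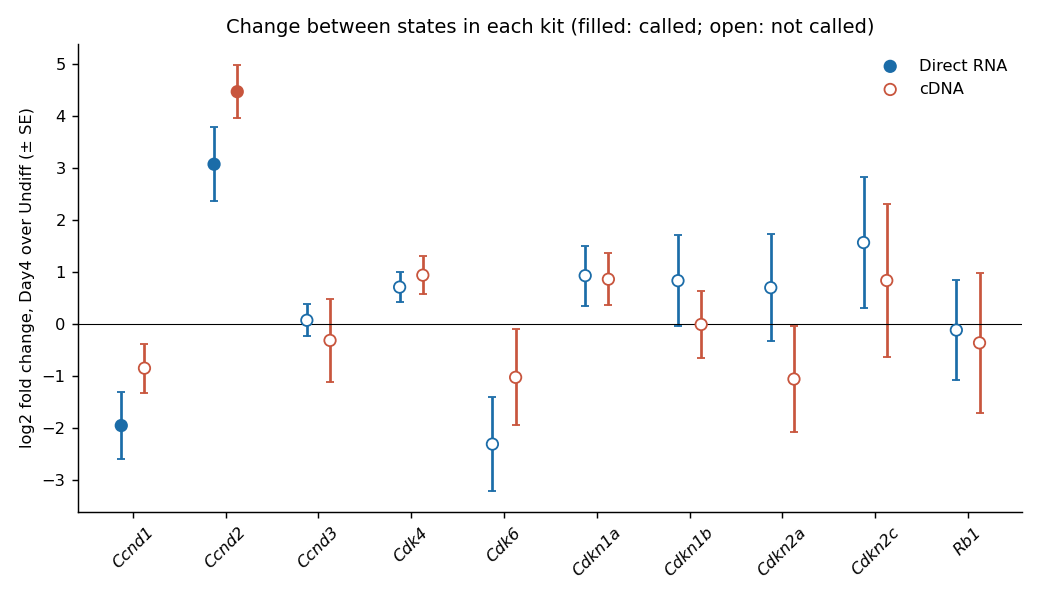
Log2 fold change of Day4 over Undiff (y axis, DESeq2, bars are SE) for the 10 genes (x axis) in Direct RNA (blue) and cDNA (red), filled where called. Ccnd2 is filled on both platforms (3.08 and 4.47), and Ccnd1 in Direct RNA only (-1.94).

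Counted as a list, 1 of the 10 genes was higher and 1 lower at Day4 in Direct RNA, where 9 passed the mean count limit. Of all 9646 genes tested there, 9.54% were called higher and 7.67% lower. In cDNA, where 8 of the 10 passed the limit, 1 was higher and 0 lower, against 8.69% and 9.24% of 10271 genes. With total reads as size factors the calls over all genes in cDNA shifted from 893 higher and 949 lower to 1245 and 655. With edgeR, 2 were higher and 2 lower in Direct RNA against 18.7% and 15.1% of all genes, and 1 higher and 0 lower in cDNA against 17.0% and 15.6%. As counts these are close to the background, so the result lies in the named genes and not in the list. For the interaction of platform and state, 0 of the 10 were called by DESeq2 or edgeR, and 0 had an unadjusted p of at most 0.05 in either, against calls for 0.0116% (DESeq2) and 0.0811% (edgeR) of 17267 genes.

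By role, the summed level of the D cyclins was 538 ± 83.4 CPM in Direct RNA Undiff and 630 ± 37.4 CPM at Day4. In cDNA the sum went from 96.6 ± 14.4 to 374 ± 145 CPM, a smaller difference than that of Ccnd2 alone (10.4 to 310 CPM). The sum of the CIP/KIP members Cdkn1a and Cdkn1b, without Cdkn1c, was 64.6 ± 18.2 and 135 ± 29.2 CPM in Direct RNA, and 65.5 ± 22.2 and 119 ± 4.67 CPM in cDNA, without overlap between states on either platform. The sum of the INK4 members Cdkn2a and Cdkn2c was 12.9 ± 2.01 and 30.9 ± 13.8 CPM in Direct RNA, and 8.24 ± 6.24 and 5.37 ± 3.30 CPM in cDNA. Per kilobase, the order in Direct RNA Undiff began with Cdk4 (383 ± 59.4), Ccnd3 (116 ± 19.3), Cdkn1a (23.9 ± 15.0) and Ccnd1 (21.3 ± 4.06 CPM per kb), of which the last pair did not differ beyond their spread. In cDNA Day4 the order began with Cdk4 (1143 ± 43.0), Ccnd2 (49.0 ± 20.03), Cdkn1a (38.6 ± 4.198) and Ccnd1 (13.8 ± 4.00 CPM per kb). Per kilobase Ccnd2 and Cdkn1a did not differ there beyond their spread. In CPM, without division by length, Ccnd2 lay above Cdkn1a in that group (310 ± 127 against 80.3 ± 8.73). The last places were held by Cdkn2c, Ccnd2 and Cdkn1b in Direct RNA Undiff, with 1.03 ± 0.19, 1.57 ± 0.99 and 3.29 ± 2.87 CPM per kb, and by Cdkn2c, Rb1 and Cdk6 in cDNA Day4, all under 0.50 CPM per kb.

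The genes around this module were followed as lists, read against the shares of all genes tested that were called. Of 8 genes of the cyclin E/A and CDK2 module, 0 rose and 1 fell on each platform, near the 7.67% and 9.24% of all genes called lower. That gene was Ccne1, which encodes cyclin E1, the partner of CDK2 at the G1/S boundary. It had 131 and 409 reads in Direct RNA Undiff and 16 and 60 at Day4, and 73 and 292 in cDNA Undiff and 22 and 60 at Day4. It fell from 413 ± 52.9 to 68.9 ± 17.6 CPM in Direct RNA (-2.60 ± 0.39, adjusted p = 2.56e-09, DESeq2), and in cDNA from 108 ± 44.4 to 22.8 ± 8.62 CPM (-2.50 ± 0.51, adjusted p = 3.03e-05). The cDNA call was lost without Undiff replicate 2 (-2.07, adjusted p = 0.0784). The list's median was -0.29 in Direct RNA (0.025 for all genes tested) and -0.31 in cDNA (0.002), and the cDNA median became 0.0 with total reads as size factors, where that of all genes became 0.31.

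Of the 3 other CDK inhibitors, 1 rose on both platforms, where 9.54% (Direct RNA) and 8.69% (cDNA) of all genes tested were called higher. Cdkn1c, which encodes p57, the remaining CIP/KIP member, had 14 and 67 reads in Direct RNA Undiff and 338 and 1517 at Day4, and 9 and 26 in cDNA Undiff and 235 and 593 at Day4. It rose from 57.0 ± 23.8 to 1625 ± 611 CPM in Direct RNA (4.58 ± 0.38, adjusted p = 4.42e-31, DESeq2), and in cDNA from 11.0 ± 2.09 to 232 ± 75.8 CPM (3.94 ± 0.49, adjusted p = 4.13e-13). Both calls held in all 12 alternatives run on each platform.

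Of 12 Rb family and E2F genes, 0 rose on either platform, 1 fell in Direct RNA (E2f4, -1.05 ± 0.37, adjusted p = 0.043) and 0 fell in cDNA. E2f4 lost its call with total reads as size factors. Of 13 S phase genes that E2F drives, 2 fell on each platform and 0 rose, against 7.67% and 9.24% of all genes called lower. They were Mcm5 (-1.17) and Cdc6 (-1.61) in Direct RNA, and Mcm2 (-1.23) and Rrm2 (-1.05) in cDNA, genes for replication licensing and, for Rrm2, nucleotide synthesis. Of the 13, 12 had a value below 0 on each platform, as did 4721 of 9646 genes tested in Direct RNA and 5130 of 10271 in cDNA. The medians were -0.74 and -0.62 (0.025 and 0.002 for all genes). With total reads as size factors they were -0.64 and -0.33 (0.13 and 0.31 for all genes), and 1 and 0 genes of the list were called. Below 0 were then 12 and 10 of the 13, against 4394 and 4022 of all genes tested. This scaling shifts all genes of a platform about alike, so it cannot test the distance from the median gene.

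Of 13 genes of p53 and its targets, 5 fell in Direct RNA and 4 in cDNA (7.67% and 9.24% of all genes tested were lower), and 0 rose by DESeq2 while 1 rose by edgeR on each platform. Trp53, the p53 gene, fell from 619 ± 43.7 to 208 ± 14.7 CPM in Direct RNA (-1.66 ± 0.31, adjusted p = 5.55e-06, DESeq2), and in cDNA from 513 ± 86.5 to 276 ± 14.5 CPM (-1.19 ± 0.38, adjusted p = 0.0193). Bax, a promoter of apoptosis, was at 586 ± 114 and 234 ± 121 CPM in Direct RNA (-1.38 ± 0.38) and at 692 ± 149 and 329 ± 16.5 CPM in cDNA (-1.36 ± 0.38). Perp (-2.08 ± 0.63 and -2.18 ± 0.72) and Trp53inp1 (-1.82 ± 0.65 and -1.86 ± 0.67) fell on both platforms, and Ccng1 (-1.01) in Direct RNA. The list's medians were -1.05 and -1.17 (0.025 and 0.002 for all genes). With total reads as size factors 3 and 1 of the 13 were called, with medians of -0.95 and -0.86 (0.13 and 0.31 for all genes). Cdkn1a, the p53 target described above, was not in this list and had Day4 values above its Undiff values.

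When each library was left out in turn, Trp53 lost its call in 1 of 4 fits in Direct RNA (without Undiff replicate 2, adjusted p = 0.0919) and in each of 4 in cDNA (-1.35 to -0.99). Bax lost it in 3 of 4 on each platform (-2.06 to -0.90 and -1.56 to -1.17), all but the fits without Direct RNA Day4 replicate 2 and without cDNA Undiff replicate 1. Perp lost it in each Direct RNA fit (-2.21 to -1.76) and in 3 of the cDNA fits (-2.85 to -0.88), all but that without Undiff replicate 1. Trp53inp1 lost it in 3 Direct RNA fits (-2.41 to -1.15), all but that without Day4 replicate 1, and in each cDNA fit (-2.19 to -1.34). The sign was the same in all of these fits. With total reads as size factors, Trp53 and Perp lost the call in cDNA and Trp53inp1 on both platforms (adjusted p = 0.071 to 0.129), and Trp53inp1 also lost it in cDNA with TMM factors (adjusted p = 0.0507). Ccng1 lost its Direct RNA call with total reads as well.

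**Figure D4:**
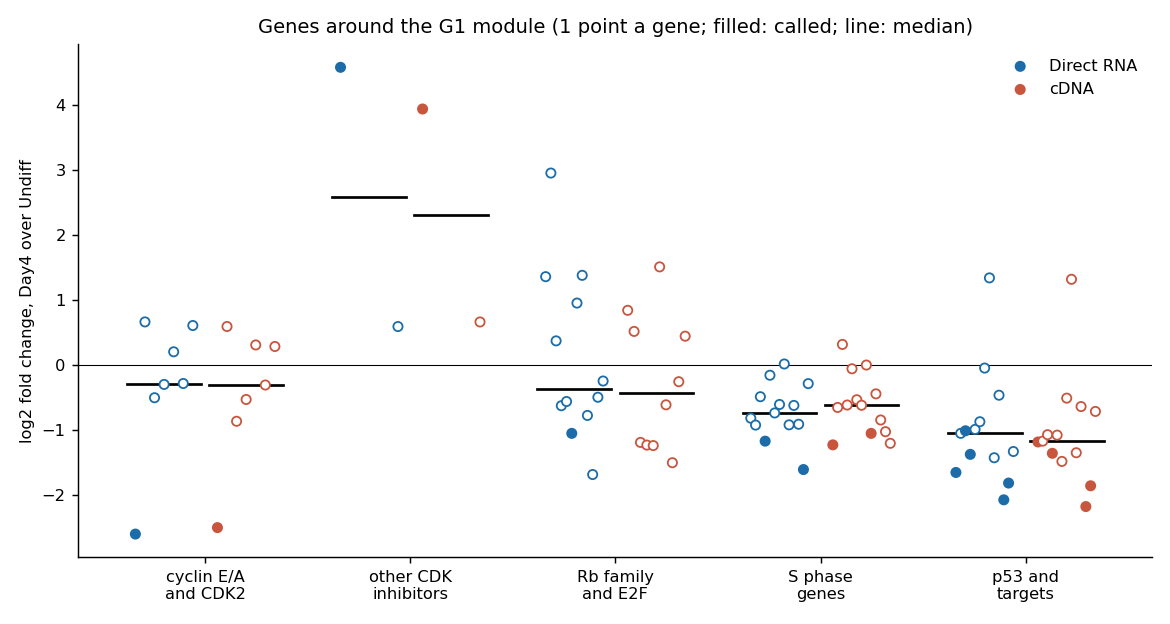
Log2 fold change of Day4 over Undiff (y axis) for the genes of 5 lists around the G1 module (x axis), limited to genes with a mean normalized count of at least 5, in Direct RNA (blue) and cDNA (red), with lines at the medians. Cdkn1c (4.58 and 3.94) and Ccne1 (-2.60 and -2.50) are the most distant filled points, and the p53 list has 5 and 4 filled points below 0.

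The 3 genes whose levels followed Ccnd2 most closely over the 8 libraries were Meis1, a homeobox gene (Pearson r = 0.9878 of log2(CPM + 1)), Prkar1a, a regulatory subunit of protein kinase A (r = 0.985), and Fundc1, a mitochondrial receptor (r = 0.9844), among 6668 genes with at least 20 reads on average. The libraries share state, platform and depth, so this is a description. Meis1 had mean levels of 1.43 and 93.9 CPM in Direct RNA Undiff and Day4, and of 3.50 and 367 CPM in cDNA. Prkar1a (215 and 461, then 236 and 599 CPM) and Fundc1 (39.2 and 78.8, then 43.2 and 104 CPM) changed much less than Ccnd2.

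Several of these genes had different levels on the platforms. Both kits were run on RNA of the same cultures of each state, so the libraries of the 2 platforms are not independent, although the main fits over all 8 libraries treat them as independent. Neither the labels nor the methods say that equal replicate numbers mark the same culture across the kits. DESeq2 was used for this test, fitted to the 8 libraries together with the state as a further term. DESeq2 size factors and read totals differ between the platforms by 0.75 on the log2 scale, and with total reads as size factors the median over all genes moved from -0.02 to -0.73, so differences are given relative to the median gene and the value by total reads stands beside each call. Of the 10 genes, 4 were called higher and 2 lower in cDNA, against 24.7% and 26.6% of 10426 genes (2572 and 2772, or 1132 and 4251 by total reads). The same 6 were called by edgeR, where the background was 28.4% and 27.8%.

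Ccnd3 had the largest difference of the 10. Its level was 449 ± 74.5 CPM in Direct RNA Undiff against 12.0 ± 8.05 CPM in cDNA Undiff, and 516 ± 43.4 against 12.2 ± 3.24 CPM at Day4, ratios of 37.3 and 42.5. The log2 difference was -4.47 ± 0.28 (adjusted p = 5.61e-55), and -5.18 by total reads. Ranked from the lowest, it was number 83 of 10390 genes tested and matched to the annotation. The last exon of Ccnd3 meets the last exon of Bysl, a ribosome biogenesis gene on the opposite strand, tail to tail. The RefSeq gene extents share 359 bases, from chr17:47599331 to 47599689. For gene counts the methods took the strandedness of the libraries into account and name Direct RNA as strand-specific. For cDNA they name no setting for genes, and exons were counted there without strand. Reads that fit more than 1 gene, which the counter sets aside, were 2.16% to 2.33% of the reads on genes plus such reads in Direct RNA and 7.65% to 8.45% in cDNA. Bysl itself was at 177 ± 18.4 and 63.6 ± 24.8 CPM in Direct RNA Undiff and Day4, and at 89.3 ± 38.3 and 31.4 ± 7.97 CPM in cDNA. It was not called between platforms with the size factors (-0.21 ± 0.27, adjusted p = 0.675), and by total reads (-0.95 ± 0.30, adjusted p = 0.00584) it stayed under the fold threshold. Of 2087 tested genes with an exon that overlaps a gene on the opposite strand, 37.7% were lower in cDNA and 20.9% higher (median -0.44), against 23.8% and 25.5% of 8303 genes without one (median 0.07). The part of the overlap in the Ccnd3 value was not tested.

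Rb1 was also lower in cDNA (-2.02 ± 0.63, adjusted p = 0.00517, and -2.71 by total reads), at 17.0 ± 8.44 against 2.30 ± 1.22 CPM in Undiff and 15.9 ± 2.48 against 2.06 ± 1.85 CPM at Day4. No cDNA library reached a Direct RNA library. The call was lost without Direct RNA Day4 replicate 2 (-1.84, adjusted p = 0.0505) or without cDNA Undiff replicate 2 (-1.77, adjusted p = 0.0519). Rb1 shares exon bases with Lpar6 (408) and Rcbtb2 (488) on the opposite strand. Neither of these was called between platforms with the size factors (0.85 and -0.48), while by total reads Rcbtb2 was called lower in cDNA (-1.16, adjusted p = 0.000506) and Lpar6 was not called (0.17).

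Ccnd2 was higher in cDNA (1.89 ± 0.40, adjusted p = 1.17e-05), also by total reads (1.21, adjusted p = 0.0135). In CPM the Undiff libraries of both platforms overlapped (9.93 ± 6.25 and 10.4 ± 3.19), and at Day4 cDNA lay 3.33-fold above Direct RNA. Ccnd1 (1.20 ± 0.33, adjusted p = 0.00102) and Cdk4 (1.25 ± 0.20, adjusted p = 3.28e-09) were called higher with the size factors, but by total reads they were at 0.48 (adjusted p = 0.332) and 0.52 (adjusted p = 0.0429) and did not reach the fold threshold. Cdkn1b was called higher (1.24 ± 0.51, adjusted p = 0.0407), but not by total reads (0.51). It also lost the call in 6 of 8 fits that left out 1 library (0.75 to 1.40), all but those without Direct RNA Day4 replicate 1 and without cDNA Undiff replicate 2.

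Ccnd1, Ccnd2 and Cdk4 overlap exons of genes on the opposite strand as well, by 1100 bases (Oraov1), 368 bases (9330179D12Rik) and 641 bases (Tspan31). None of them was called lower in cDNA with either scaling. In CPM the Undiff libraries of the platforms overlapped for each of them, and at Day4 cDNA lay above Direct RNA. The part of the exon overlap in these values was not tested. Cdk6, Cdkn1a, Cdkn1b, Cdkn2a and Cdkn2c have no such overlap. Cdk6 (-0.59 ± 0.51), Cdkn1a (0.39 ± 0.31) and Cdkn2a (-0.52 ± 0.68) did not pass between platforms. By total reads Cdk6 was called lower in cDNA (-1.28, adjusted p = 0.048) and Cdkn1a changed sign (-0.34). Cdkn2c had a mean normalized count of 2.53 over the 8 libraries, under the limit for a call. Its value was -2.60 ± 0.94 (adjusted p = 0.0176, DESeq2), with cDNA below Direct RNA in CPM in both states. It had at most 7 reads in any library.

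**Figure D5:**
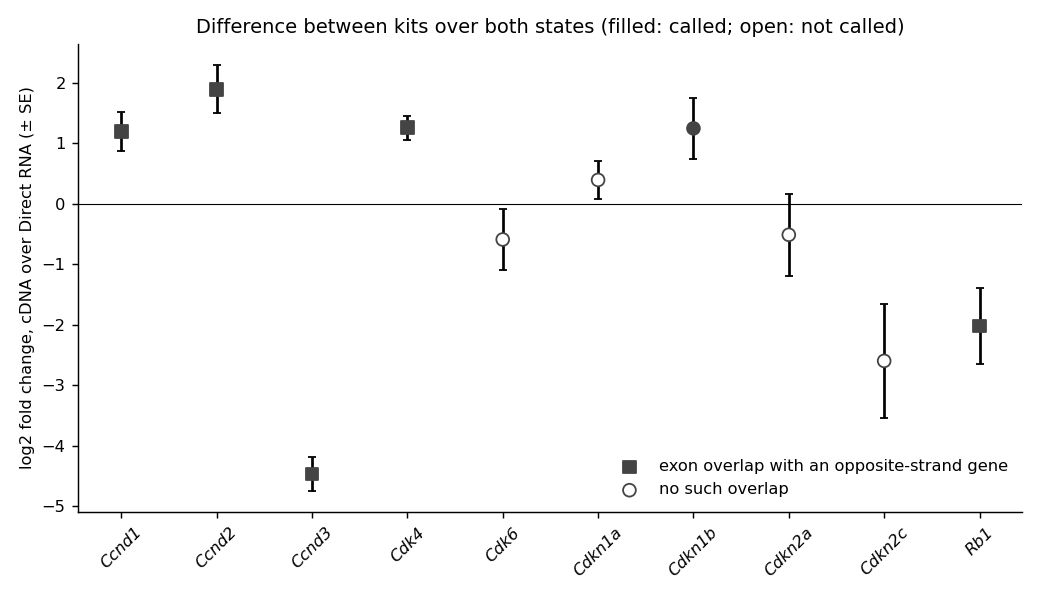
Log2 fold change of cDNA over Direct RNA (y axis, DESeq2 over both states, bars are SE) for the 10 genes (x axis), as squares where an exon overlaps a gene on the opposite strand and circles where none does, filled where called. Ccnd3 stands lowest at -4.47. Of the other squares, Rb1 (-2.02) lies below 0, and Ccnd1, Ccnd2 and Cdk4 lie above 0.

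Promoter windows were available for 7 of the 10 genes, 11 windows in all. Neither E2F sequence searched, TTTCGCGC or TTTGGCGC, was in any of them, and 0.323% and 0.514% of all windows hold these. CCAAT was in those of Cdkn1b (3 copies), and in 1 window each of Cdkn2a, Cdkn2c and Ccnd3, against 37.4% of all windows. TATAAA was in the Cdk6 window (13.6% of all windows). The RA receptor half-site AGGTCA was in 1 window each of Cdk4, Ccnd3, Cdkn2a and Cdkn2c (16.3% of all windows), and in Cdk4 it overlaps the third E-box. CACGTG was also in 1 window each of Cdk6 and Cdkn2c. Both strands were searched, and these matches show only where the letters occur.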

How the data were processed

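Polyadenylated RNA of R1 cells was sequenced in 8 libraries, 2 for each platform and state. The deposited values are raw read counts of genes, obtained by the authors with minimap2 2.10 (mm10, no secondary alignments) and htseq-count with the UCSC annotation of iGenomes, by strand (-s yes) in Direct RNA. Groups and replicate numbers were taken from the labels. The members, lists and tests were chosen with earlier results of these data known.

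CPM values were computed from the counts on 24421 genes. DESeq2 1.42.0 (R 4.3.3) was run per platform with the settings of the study's methods (shrunken log2 fold changes, Cook's cutoff and independent filtering off) and Benjamini-Hochberg adjusted p-values over all genes. Platform (state as covariate, same thresholds) and the interaction (no shrinkage, adjusted p of at most 0.05) were fitted over all 8 libraries. The edgeR 4.0.16 quasi-likelihood test with TMM factors was the alternative. The main DESeq2 fit and the edgeR fit of each comparison were run on simulated counts, without a required recovery for the interaction. The further settings were not simulated. Other alternatives were scaling, filters, shrinkage, blocks and left-out libraries. From the lists, genes called alike on both platforms were named, at most 4 a list, and the few others are named after their values were seen. Coordinates and transcript lengths come from GENCODE vM21, with 98.3% of symbols matched. No pair of replicates agreed within sampling noise (chi-square per degree of freedom 2.68 to 14.9).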

Additional observations from a re-analysis of the deposited data

How the results depend on the processing

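Of 529 alternative values of the 10 genes' changes, 478 kept their direction and their side of the threshold, 19 lost a call, 5 gained a call and 27 changed sign. Only values called in the main fit can lose a call, and many of the 529 belong to changes without one. The 478 therefore do not measure how stable the calls were. The number of genes called between states in Direct RNA (2) was 4 with edgeR, 3 on genes with at least 10 reads, 1 with the replicate block and 0 to 1 when each library was left out, and the number in cDNA (1) was 2 with total reads as size factors. None of the values that changed sign passed the test in either setting. Cdkn1b between states in cDNA went from -0.00 to 0.085 with edgeR, 0.052 with TMM factors, 0.35 with total reads and 0.12 with the replicate block, and spanned -0.68 to 1.07 with left-out libraries. With total reads, the interaction became 0.12 for Cdkn1a and 0.044 for Rb1, and Cdkn1a between platforms became -0.34. With left-out libraries the change between states spanned -0.20 to 0.28 for Ccnd3, -0.43 to 1.19 for Cdkn2a and -0.48 to 0.23 for Rb1 in Direct RNA, and -0.80 to 0.43 for Ccnd3 and -0.86 to 0.11 for Rb1 in cDNA. The interaction spanned -0.87 to 0.36 for Ccnd3, -0.80 to 0.49 for Cdkn1a, -2.51 to 0.34 for Cdkn1b, -0.48 to 0.92 for Cdkn2c and -1.60 to 0.41 for Rb1, and Cdkn2a between platforms spanned -1.09 to 0.27. The cause was not tested. With edgeR the p53 list had 8 and 6 genes lower (5 and 4 with DESeq2), the S phase list 2 and 3 (2 and 2), and the Rb family and E2F list 2 and 2 lower (1 and 0), with 2 higher in Direct RNA (0), while the shares of all genes called lower also went from 7.67% and 9.24% to 15.1% and 15.6%. Per transcript length some D cyclin shares moved by more than the SD of the replicates. They became 9.60% for Ccnd2 and 86.8% for Ccnd3 in Direct RNA Day4, 80.9% for Ccnd1 in cDNA Undiff, and 21.3%, 73.9% and 4.88% for Ccnd1, Ccnd2 and Ccnd3 in cDNA Day4. The other shares moved by less, such as Ccnd2 in cDNA Undiff (11.1 ± 4.96% to 6.95%).

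Libraries of different states share only a replicate number, and those of the platforms share cultures, without a statement that the numbers match them. Over 1395 genes, the replicate differences of the states correlated at 0.21 in Direct RNA and 0.50 in cDNA, and those of the platforms at 0.12 in Undiff and -0.42 at Day4. The replicate block turned the Direct RNA change of Ccnd1 to -1.87 (adjusted p = 0.222, DESeq2) and kept Ccnd2 called (2.91 and 4.44). With this block Perp (-1.98, adjusted p = 0.148, and -2.07, adjusted p = 0.0569) and Trp53inp1 (-1.71, adjusted p = 0.302, and -1.77, adjusted p = 0.198) lost their calls in Direct RNA and cDNA, and so did Cdkn1b between platforms (1.12, adjusted p = 0.117). It changed no call of the other members or of Ccne1, Cdkn1c, Trp53 and Bax. A fit that leaves 1 library in a group assumes that it varies as the other group does. Cdkn2c, Rb1, Cdkn2a and Cdk6 had at most 36 reads in each library, and the part of depth in their results was not tested.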
